A study of Mus musculus with 32 samples.

Results

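T-box transcription factors were followed through the developing jaws of mouse embryos at embryonic day 13.5. The 9 genes described are Tbx1, Tbx2, Tbx3, Tbx4, Tbx5, Tbx15, Tbx18, Tbx20 and Tbx22, matched by the gene symbol of the array's annotation, and all 9 were among the 13705 genes that passed the low-signal filter. The arrays came from mutants labelled Wnt1-Cre;Alk5 fl/fl (called KO) and from control littermates, each as distal mandible, proximal mandible, distal maxilla and proximal maxilla, with 4 arrays in each of the 8 groups. Wnt1-Cre is active in the neural crest, from which the facial mesenchyme derives, so the epithelium, the skeletal muscle cells and the endothelium of a KO jaw were not targeted. Alk5 (gene symbol Tgfbr1) encodes a kinase receptor through which TGF-beta signals. The parents were Wnt1-Cre;Alk5 fl/+ and Alk5 fl/fl, so each control embryo of that cross carried at least 1 floxed allele and could carry the Cre; the labels do not separate these genotypes. Mutants were picked by their cleft palate and skull defect, all embryos had the C57B6 label, and whether arrays came from single or pooled embryos is not given, so the p-values below rest on the scatter among arrays, part of which may be technical.

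T-box proteins share a DNA-binding domain, the T-box, and switch genes on or off in the patterning of limbs, heart and face. Tbx2, Tbx3, Tbx4 and Tbx5 form 1 branch of the family: Tbx2 and Tbx3 mainly repress transcription, Tbx5 is known for the forelimb and heart and Tbx4 for the hindlimb. Tbx1, Tbx15, Tbx18, Tbx20 and Tbx22 lie in a neighbouring branch. TBX1 loss underlies much of the 22q11 deletion syndrome, TBX22 mutations cause X-linked cleft palate in humans, Tbx15 and Tbx18 act in mesenchyme of the skeleton, somites and heart inflow, and Tbx20 acts in the heart and in cranial motor neurons.

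Promoter windows from RefSeq (build GRCm38.p6, 250 bases before to 50 after the annotated start) were at hand for 5 of the 9 genes, with 8 windows in all. The windows of Tbx18, Tbx22 and Tbx4 are shown because these 3 genes carry the genotype, jaw and end differences described further on. Capitals mark the Smad box CAGAC or its reverse complement GTCTG, searched on both strands, since Smad proteins are the transcription factors that Alk5 activates.
Tbx18 (chr9:87731211-87731510, minus strand): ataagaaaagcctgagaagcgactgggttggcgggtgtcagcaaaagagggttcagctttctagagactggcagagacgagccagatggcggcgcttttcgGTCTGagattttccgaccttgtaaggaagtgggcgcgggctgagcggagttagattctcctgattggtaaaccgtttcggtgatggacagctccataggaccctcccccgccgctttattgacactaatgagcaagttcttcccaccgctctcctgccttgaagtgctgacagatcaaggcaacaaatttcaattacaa
Tbx22, most 5′ of its 3 windows (chrX:107667714-107668013, plus strand): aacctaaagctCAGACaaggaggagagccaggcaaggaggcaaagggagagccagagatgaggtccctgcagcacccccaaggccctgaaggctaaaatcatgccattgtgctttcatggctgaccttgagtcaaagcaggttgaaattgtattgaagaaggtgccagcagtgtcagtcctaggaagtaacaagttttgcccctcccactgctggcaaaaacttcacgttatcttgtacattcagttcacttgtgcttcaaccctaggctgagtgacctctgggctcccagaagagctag
Tbx4 (chr11:85896515-85896814, plus strand): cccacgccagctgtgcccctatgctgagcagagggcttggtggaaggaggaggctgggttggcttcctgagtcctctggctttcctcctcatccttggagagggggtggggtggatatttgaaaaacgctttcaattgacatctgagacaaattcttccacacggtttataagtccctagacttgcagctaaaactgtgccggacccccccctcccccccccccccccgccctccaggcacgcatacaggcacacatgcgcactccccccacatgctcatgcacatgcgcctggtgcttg
The Tbx18 window held 1 Smad box, whose first base lies at -149 from the start, the Tbx22 window held 1, at -239, and the Tbx4 window held 0. Over all 8 windows of the 5 genes, 5 held a Smad box, against 49.594% of 32851 mouse promoter windows of the same length. The T-box element AGGTGTGA (reverse complement TCACACCT) was in 0 of the 8 windows and in 1.275% of all windows. A match of letters is a description of the sequence and not a binding site, and a window without a match shows only that these letters are not in it.

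Values are log2 RMA intensities, so a difference of 1 is a doubling. Levels of different genes come from different probes and are not set against each other. Arrays of 1 group correlated at 0.926 to 0.997. On the 16 mandible arrays the closest group mean was in all 16 cases that of the array's own group, whereas this held for 6 of the 16 maxilla arrays, and 6 maxilla arrays lay closest to a group of the other end. Both ends of control number 2 and of KO number 4 were among them, and these 4 arrays are called doubted below. The remaining pair were the number 1 proximal maxilla arrays of KO and control, which are left out where results are given without number 1 and the doubted arrays. Maxilla results are given without the doubted arrays where that changed a call. Xist read 13.34 to 14.06 on the arrays of control number 2 and KO number 1, 9.69 and 10.72 on the control number 3 arrays of distal and proximal maxilla, and 6.38 to 6.96 on the others. Y-linked genes averaged 3.65 to 4.29 on the arrays of control number 2 and KO number 1. They averaged 10.05 and 9.97 on the control number 3 arrays of distal and proximal maxilla, and 9.89 to 10.28 on the others. Signals of both sexes were thus present on those control number 3 maxilla arrays alone. The control number 3 mandible arrays had Xist at 6.70 and 6.84. Control distal mandible array 3 had a Gapdh 3′ minus 5′ probe difference of 2.23, and the other arrays had -0.18 to 0.12. The Cre spike-in read 14.01 to 14.19 on the number 1 arrays and 12.94 to 13.63 on the others. Neural crest mesenchyme markers (Prrx1, Twist1, Pdgfra, Prrx2, Dlx2) had mean levels of 11.98 to 12.61 over all arrays, with 11.98 to 12.12 in KO distal maxilla against 12.22 to 12.34 in control distal maxilla, and the mandible identity list, which holds Hand2, Dlx5 and Pitx1, read 10.02 to 10.68 in mandible and 7.72 to 8.91 in maxilla. Tgfbr1 itself did not fall in KO tissue: the KO minus control difference was 0.28 in distal mandible (limma adjusted p = 0.0411), 0.18 in proximal mandible (adjusted p = 0.285), 0.41 in distal maxilla (adjusted p = 0.00477) and 0.16 in proximal maxilla (adjusted p = 0.978). Where its probes lie relative to the deleted exon is not given in the sources used here, so this gene does not check the labels.

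**Figure D1:**
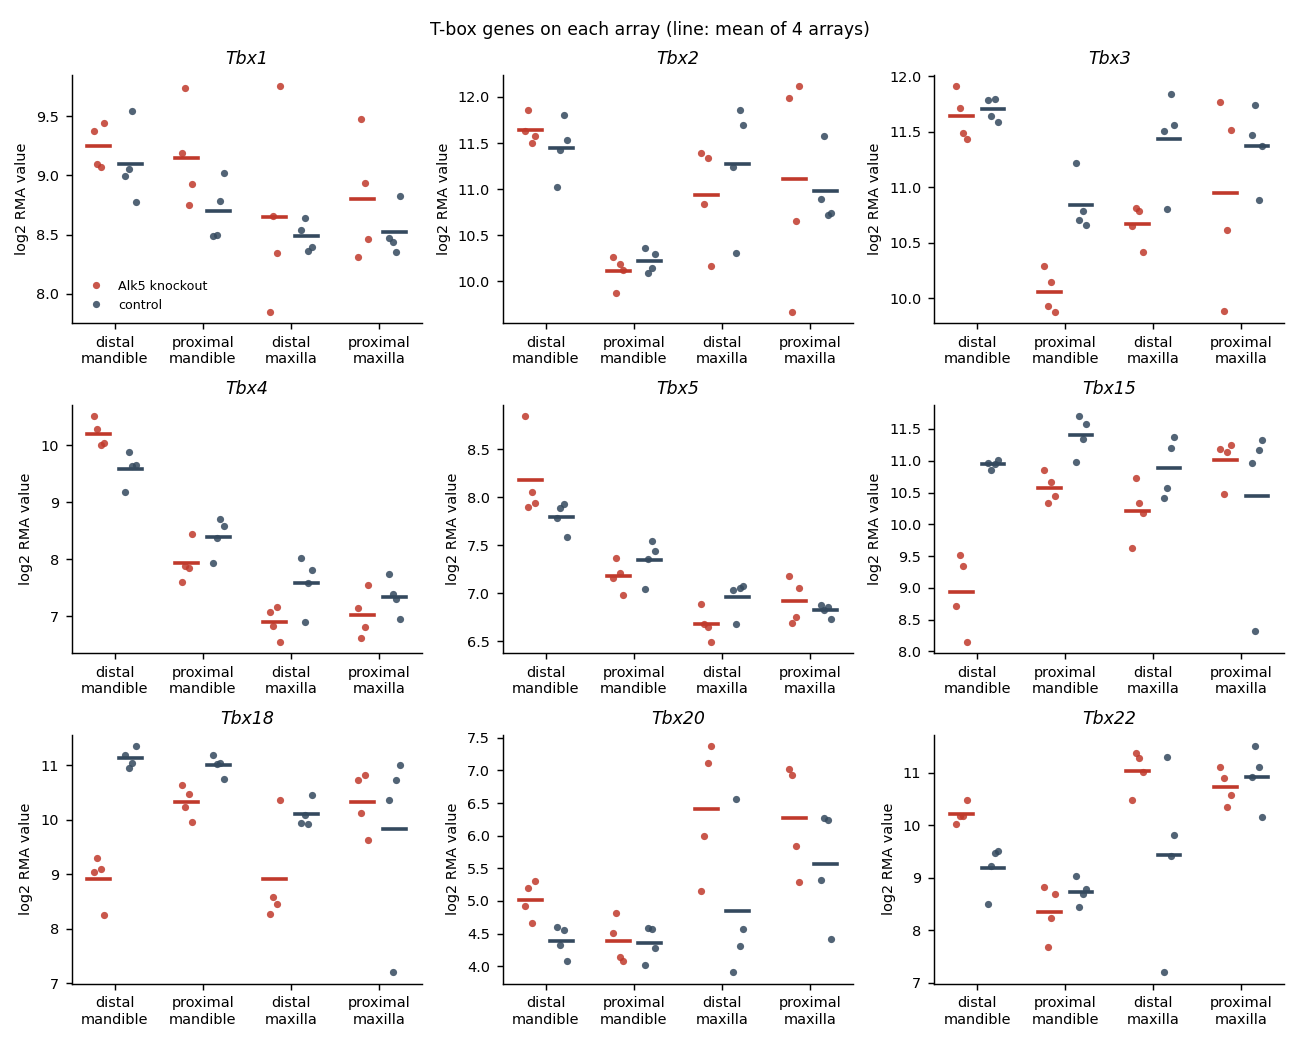
Each panel shows 1 T-box gene, with log2 RMA value on the vertical axis (each panel has its own range) and the 4 jaw regions on the horizontal axis. Each point is 1 array, red for Alk5 knockout and dark blue for control, and each line is the mean of 4 arrays; Tbx15 and Tbx18 of KO distal mandible lie below all control distal mandible arrays, and Tbx4 and Tbx5 step down from distal mandible to maxilla.

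Loss of Alk5 in the neural crest was accompanied in distal mandible by lower Tbx15 and Tbx18, both transcription factors of mesenchyme. Of the 9 T-box genes, 2 were called lower and 0 higher there at an adjusted p under 0.05, and 1.91% of all genes were called in either direction (1.43% lower and 0.482% higher). Tbx15 read 8.72, 9.51, 9.35 and 8.14 in KO distal mandible, against 10.96, 10.86, 10.95 and 11.01 in control distal mandible. Every KO array was below every control array, and the KO arrays were far more spread (SD 0.63 in KO and 0.06 in control). The difference was -2.01 ± 0.42 (SE), or 4.04-fold lower in KO (adjusted p = 0.00899). Without KO distal mandible array 4, the lowest array, it was -1.75 (adjusted p = 0.0559). The call was also lost in 3 of 4 fits that left out all arrays of 1 number (adjusted p up to 0.133).

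Tbx18 gave 9.03, 9.29, 9.09 and 8.26 in KO distal mandible, against 11.18, 10.94, 11.04 and 11.34 in control distal mandible. Its groups did not overlap either. The difference was -2.21 ± 0.52, or 4.62-fold lower in KO (adjusted p = 0.0222), with a 95% confidence interval of -3.28 to -1.14. The adjusted p passed 0.05 when 1 of control arrays 1 and 3 or KO arrays 3 and 4 was left out (0.0535 to 0.0879, differences -2.27 to -1.99). The call was also lost in 3 of 4 fits that left out all arrays of 1 number (adjusted p up to 0.25). Control array 3 is the one with the high Gapdh difference, and without it the Tbx18 difference was -2.24 (adjusted p = 0.055). In bulk tissue, fewer cells that express a gene and less RNA per cell cannot be told apart.

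Both genes have a dimmer probe set of their own, which moved the same way. The second Tbx18 probe set read 8.27, 8.45, 8.13 and 7.13 in KO distal mandible, against 10.41, 10.16, 9.28 and 10.54 in control distal mandible, and the second Tbx15 probe set read 6.61, 7.27, 7.37 and 6.39 in KO against 8.51, 8.74, 7.61 and 8.70 in control. Neither pair of groups overlapped, but neither difference passed the threshold when all kept probe sets were tested: it was -2.10 ± 0.56 for Tbx18 (adjusted p = 0.0665) and -1.48 ± 0.45 for Tbx15 (adjusted p = 0.117). Control array 3 was the lowest control array on both of these second probe sets.

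**Figure D2:**
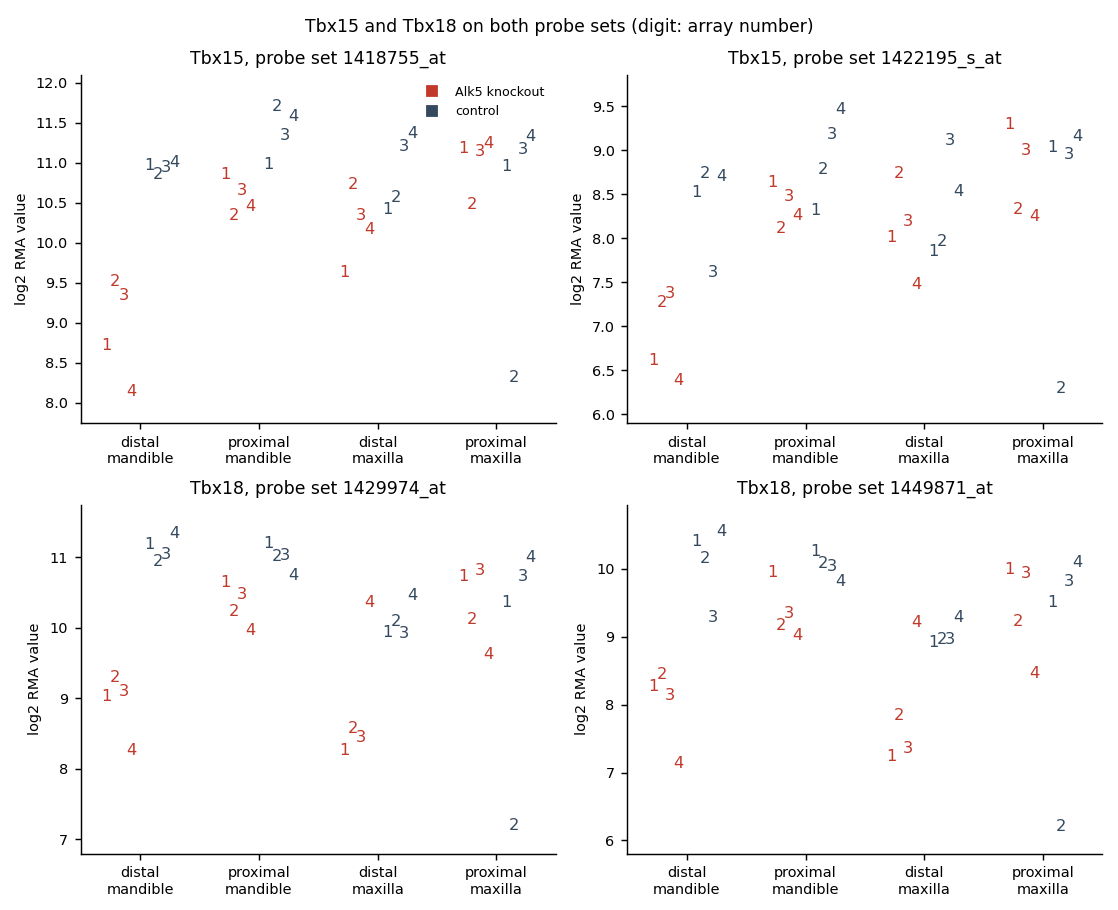
The 2 kept probe sets of Tbx15 (upper row) and Tbx18 (lower row) in the 4 jaw regions, with log2 RMA value on the vertical axis and each digit 1 array, red for Alk5 knockout and dark blue for control. KO distal mandible lies below control on all 4 probe sets, control proximal maxilla array 2 lies far below its group on all 4, and KO distal maxilla array 4 lies above its group on both Tbx18 probe sets.

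In distal mandible 5 of the 9 genes had groups that did not overlap, as did 12.3% of all genes. Besides Tbx15 and Tbx18 these were Tbx4, Tbx20 and Tbx22, all with the KO arrays above; Tbx20 was below the low-signal level on all 8 arrays, so its separation is not read as a difference. Tbx4 had 10.52, 10.29, 10.0005 and 10.04 in KO, against 9.19, 9.89, 9.64 and 9.66 in control (difference 0.62, adjusted p = 0.183). Tbx22, the X-linked palate gene, had 10.03, 10.17, 10.17 and 10.49 in KO, against 8.50, 9.23, 9.48 and 9.51 in control (difference 1.04, adjusted p = 0.283). Tbx5 differed by 0.39 (adjusted p = 0.211), and Tbx1, Tbx2 and Tbx3 by 0.15, 0.20 and -0.06. The median difference of the 9 genes was 0.20, against -0.03 over all genes.

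The levels of several marker lists also differed between the genotypes in distal mandible. The skeletal muscle list averaged 9.64 to 10.85 in KO against 7.95 to 9.99 in control, with 0 of 9 genes called and a median difference of 1.34. The neuron list averaged 7.58 to 7.79 in KO against 8.01 to 9.01 in control, with 1 of 7 tested genes called lower. Of the 6 tested palate and maxilla markers, 2 were called lower, and the list averaged 9.38 to 9.73 in KO against 10.12 to 10.49 in control. The bone list, with 2 of 6 genes tested and 0 called, averaged 9.11 to 9.64 in KO against 9.70 to 10.69 in control. Of the 7 macrophage markers, 1 was called lower, the leukocyte gene Ptprc (-1.08, adjusted p = 0.00853), and that list averaged 7.96 to 8.22 in KO against 8.12 to 8.86 in control. The neuron, palate and bone lists did not overlap between genotypes, and the muscle and macrophage lists did. All 9 muscle markers rose above the low-signal level on at least 23 arrays. Their part in the Tbx15 and Tbx18 differences was not tested.

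**Figure D3:**
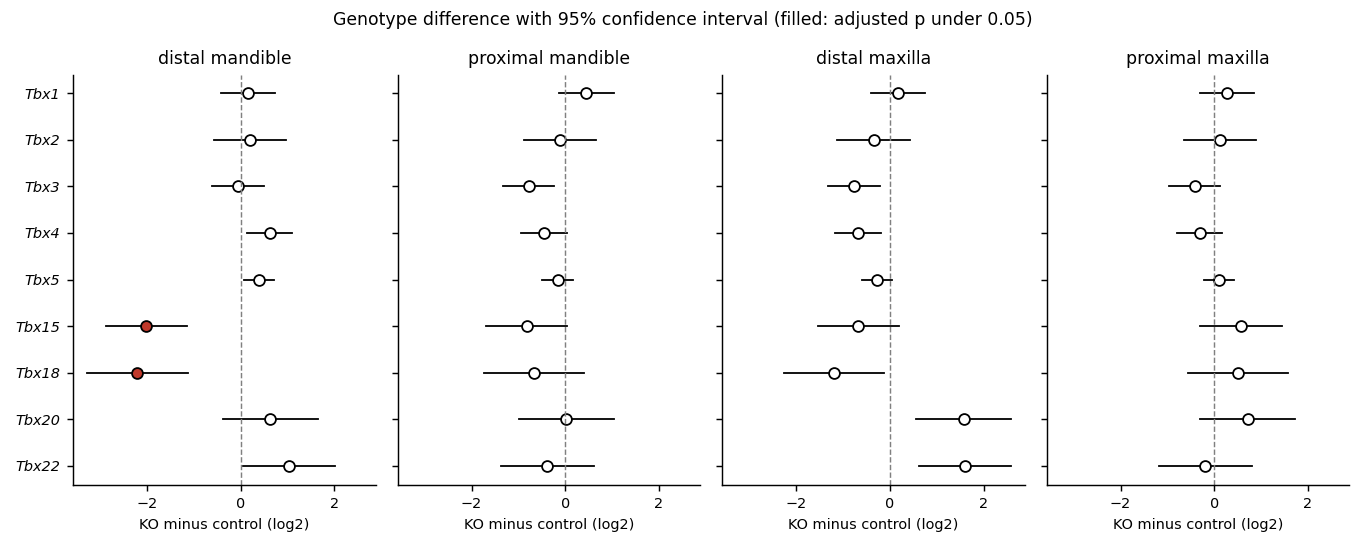
KO minus control difference (log2, horizontal axis) of each T-box gene in the 4 regions, with its 95% confidence interval from the model of all 32 arrays; filled points passed an adjusted p of 0.05. The filled points are Tbx15 (-2.01) and Tbx18 (-2.21) in distal mandible.

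In proximal mandible the same pair stood lower in KO without passing the test, and Tbx3, a repressor of the Tbx2 branch, joined them. With limma 0 of 9 genes were called (1.26% of all genes, with 0.591% higher and 0.664% lower), and the groups of 3 did not overlap (11.8% of all genes). Tbx3 read 10.29, 9.93, 10.15 and 9.88 in KO proximal mandible, against 11.22, 10.70, 10.79 and 10.66 in control proximal mandible (difference -0.78 ± 0.27, adjusted p = 0.178). Its second kept probe set read 9.93 to 10.23 in KO against 10.57 to 10.86 in control. The third, far dimmer, read 6.78 to 7.20 in KO against 6.75 to 7.46 in control, so the groups overlapped on it (means 7.04 and 7.14). Tbx15 read 10.86, 10.34, 10.66 and 10.45 in KO against 10.99, 11.70, 11.34 and 11.58 in control (difference -0.83, adjusted p = 0.456), and Tbx18 read 10.64, 10.23, 10.47 and 9.96 against 11.19, 11.02, 11.03 and 10.74 (difference -0.67, adjusted p = 0.708). Without the number 1 arrays and the 4 doubted maxilla arrays, Tbx3 (-0.73, adjusted p = 0.0178) and Tbx15 (-1.06, adjusted p = 0.0391) passed the threshold. The doubted arrays are not in this comparison and enter it only through the spread that all 8 groups share. Leaving out 1 number at a time called neither gene. The adjusted p was then 0.203 to 0.584 for Tbx3 and 0.425 to 0.87 for Tbx15. Macrophage markers averaged 9.21 to 9.43 in KO against 8.31 to 8.76 in control, with 2 of 7 genes called higher. The palate and maxilla list averaged 10.83 to 11.01 in KO against 11.35 to 11.49 in control (0 of 6 called), and the bone list 7.48 to 8.25 in KO against 8.54 to 11.45 in control (0 of 2 called). None of these 3 lists overlapped between the genotypes, and their part in the T-box values was not tested.

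In distal maxilla 0 of 9 genes were called (0.788% of all genes, with 0.358% higher and 0.43% lower), and the groups of 0 did not overlap (5.65% of all genes). Tbx22 had 10.48, 11.37, 11.28 and 11.02 in KO distal maxilla, against 7.20, 11.30, 9.41 and 9.82 in control distal maxilla. Control array 2 lay among the KO arrays and the other 3 control arrays lay below them all. The difference was 1.60 ± 0.48 (adjusted p = 0.113). It was 2.23 (adjusted p = 0.00439) without control distal maxilla array 2, 2.23 (adjusted p = 0.0129) without the 4 doubted maxilla arrays, and 2.41 (adjusted p = 0.00777) without the Xist-high arrays, which include that control array. Control array 1 supplied the lowest value, and without it the difference was 0.86 (adjusted p = 0.432). Without number 1 and the 4 doubted arrays it was 1.71 (adjusted p = 0.00661). This unplanned fit set KO arrays 2 and 3 against control arrays 3 and 4, with a spread taken from all groups.

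Tbx18 read 8.26, 8.58, 8.44 and 10.36 in KO distal maxilla, against 9.93, 10.08, 9.92 and 10.45 in control distal maxilla. KO array 4 stood among the control arrays and the other KO arrays below them. The difference was -1.19 ± 0.52 (adjusted p = 0.316) with all arrays and -1.68 ± 0.23 (adjusted p = 0.000807) without the 4 doubted arrays, of which KO array 4 is 1. No fit that left out 1 array called Tbx18 here (differences -1.67 to -0.97, adjusted p 0.109 to 0.525). The doubted arrays also include control proximal maxilla array 2, far below its group for Tbx18. The smaller SE without them thus follows in part from which arrays were left out. Tbx3 had 10.65, 10.81, 10.79 and 10.41 in KO against 11.51, 10.81, 11.84 and 11.56 in control (difference -0.76, adjusted p = 0.194), and Tbx4 had 7.08, 6.83, 7.16 and 6.55 in KO against 8.02, 6.91, 7.58 and 7.81 in control (difference -0.68, adjusted p = 0.189). For both genes control array 2 was the lowest control array. Without that array the Tbx4 difference was -0.90 (adjusted p = 0.0382), and without all arrays of number 2 the Tbx3 difference was -1.02 (adjusted p = 0.0496). No fit that left out all arrays of 1 number called Tbx4 (adjusted p 0.145 to 0.512). For Tbx3, no fit that left out 1 array passed (adjusted p 0.0607 to 0.447). The neural crest mesenchyme markers were separate here too, as given above (0 of 5 called, median difference -0.18), and their part was not tested.

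In proximal maxilla 0 of 9 genes were called (0.0657% of all genes, with 0.0584% higher and 0.0073% lower), and no gene had separate groups (3.16% of all genes). Tbx15 read 11.19, 10.48, 11.14 and 11.25 in KO proximal maxilla, against 10.96, 8.32, 11.17 and 11.32 in control proximal maxilla. Tbx18 read 10.73, 10.12, 10.81 and 9.62 in KO, against 10.35, 7.20, 10.72 and 11.002 in control. Control array 2 was far below its group for both genes, and the remaining arrays of the 2 genotypes lay among each other. Tbx22 had 11.11, 10.89, 10.34 and 10.57 in KO and 10.92, 11.50, 11.11 and 10.15 in control (difference -0.19, adjusted p = 0.999).

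Tbx20, known for the heart and motor neurons, passed the low-signal filter on exactly 4 arrays, all of KO maxilla (distal 3 and 4, proximal 1 and 2), so its differences are described and not counted as support. It read 5.15, 6.002, 7.12 and 7.37 in KO distal maxilla against 3.90, 6.56, 4.32 and 4.57 in control distal maxilla, and 7.03, 6.94, 5.84 and 5.29 in KO proximal maxilla against 5.32, 6.28, 6.24 and 4.42 in control proximal maxilla. On the mandible arrays it read 4.66 to 5.31 in KO distal, 4.08 to 4.60 in control distal, 4.08 to 4.82 in KO proximal and 4.02 to 4.59 in control proximal tissue. Without the doubted arrays the distal maxilla difference was 1.83 (adjusted p = 0.0224). Its other 2 probe sets never rose above the low-signal level. Neuron markers averaged 9.57 to 10.83 in KO distal maxilla against 8.90 to 9.90 in control distal maxilla, and the brain and pituitary list 6.91 to 10.37 against 6.53 to 8.24; in the brain and pituitary list Hesx1 was never above the low-signal level. Their part in the Tbx20 and Tbx22 values was not tested.

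Averaged over the 4 regions of each genotype and number, 0 of 9 genes were called (1.37% of all genes, with 0.503% higher and 0.868% lower). Arrays of 1 number were averaged although those of control number 3 differed in Xist between the jaws. Tbx18 differed by -0.89 ± 0.21 (adjusted p = 0.0892), Tbx15 by -0.74 ± 0.19 (adjusted p = 0.124) and Tbx3 by -0.51 ± 0.12 (adjusted p = 0.0895). With the array number as a block the Tbx3 difference passed (-0.51, adjusted p = 0.0238). Without control number 2 the Tbx18 difference was -1.12 (adjusted p = 0.00381), and without KO number 1 that of Tbx3 was -0.62 (adjusted p = 0.02). Tests of whether the genotype difference itself depended on jaw or end called 0 of 9 genes: for the ends of mandible (0.0219% of all genes) and of maxilla (0.0584%), and for the jaws at the distal end (0.102%, of which 0.0949% lower) and at the proximal end (0.0073%). The nearest was Tbx4 at the distal end, whose genotype difference was 1.29 ± 0.33 higher in mandible than in maxilla (adjusted p = 0.163). Without the doubted arrays the genotype difference of Tbx18 was lower at the distal than at the proximal end of maxilla (-1.54, adjusted p = 0.0481). With all arrays the genotype differences of the 4 regions are not shown to differ from each other.

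Tbx4 and Tbx5, neighbours of Tbx2 and Tbx3 on the chromosome, were higher in mandible, with their highest means at its distal end. By RefSeq annotation 0 protein-coding genes lie between Tbx2 and Tbx4 and 0 between Tbx3 and Tbx5. The order of Tbx4 ran from KO distal mandible (10.21 ± 0.24, SD) through control distal mandible (9.60 ± 0.29), control proximal mandible (8.3997 ± 0.34), KO proximal mandible (7.94 ± 0.36), control distal maxilla (7.58 ± 0.48), control proximal maxilla (7.35 ± 0.32) and KO proximal maxilla (7.03 ± 0.41) to KO distal maxilla (6.90 ± 0.28). The 2 highest groups were each separate from the next lower group, and from control proximal mandible down neighbours overlapped. Tbx5 had the highest mean in KO distal mandible (8.18 ± 0.45), then control distal mandible (7.79 ± 0.15), and its lowest in KO distal maxilla (6.68 ± 0.16). Only the step between control distal and control proximal mandible (7.34 ± 0.21) separated neighbouring groups of Tbx5.

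At the distal end, mandible exceeded maxilla for Tbx4 by 3.31 ± 0.24 in KO (adjusted p = 1.2e-09) and by 2.02 ± 0.24 in control tissue (adjusted p = 9.24e-06). For Tbx5 the distal difference was 1.503 ± 0.16 in KO (adjusted p = 2.31e-07) and 0.84 ± 0.16 in control (adjusted p = 0.00297). At the proximal end Tbx4 was 0.91 higher in KO mandible than in KO maxilla (adjusted p = 0.0272) and 1.05 higher in control mandible than in control maxilla (adjusted p = 0.00588). The proximal Tbx5 difference was 0.26 in KO (adjusted p = 0.668) and 0.52 in control (adjusted p = 0.0484). That last call was lost in 7 of 8 fits that left out 1 array (adjusted p up to 0.166), and the Tbx4 call between proximal KO jaws in 5 of 8 (adjusted p up to 0.14). Leaving out all arrays of 1 number lost the Tbx5 call between distal control jaws in 2 of 4 fits (adjusted p up to 0.135). It lost the Tbx4 call between proximal control jaws in 2 of 4 (adjusted p up to 0.163). Of the 9 genes, 4 were called between distal KO jaws, 3 higher in mandible (4.39% of all genes) and 1 lower (9.29%; 13.7% in all). Between distal control jaws 2 were called, both higher in mandible (0.394% of all genes, with 1.08% lower and 1.47% in all). Between proximal KO jaws 3 were called, 1 higher (1.26% of all genes) and 2 lower (1.81%; 3.06% in all), of which Tbx20 passed the filter through KO maxilla arrays alone and is not counted as support. Between proximal control jaws 3 were called, 2 higher (2.33%) and 1 lower (3.07%; 5.4% in all). Without the doubted arrays Tbx5 lost its call between proximal control jaws (0.52, adjusted p = 0.0848), while Tbx18 was called between distal control jaws (1.03, adjusted p = 0.0154) and Tbx1 between distal KO jaws (0.96, adjusted p = 0.012), each higher in mandible. With all arrays the Tbx18 difference had the same size (1.03, adjusted p = 0.53).

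Between the ends of the mandible, Tbx4 was higher distally by 2.27 ± 0.24 in KO (adjusted p = 2.82e-07) and by 1.20 ± 0.24 in control tissue (adjusted p = 0.00291). Tbx5 was 1.00 ± 0.16 higher in distal than in proximal KO mandible (adjusted p = 0.000161), and the control difference was 0.45 (adjusted p = 0.111). The second, dimmer Tbx4 probe set differed by 2.07 between distal KO jaws (adjusted p = 6.77e-05) and by 1.80 between KO mandible ends (adjusted p = 0.000888), whereas its control differences of 0.93 and 0.61 did not pass (adjusted p = 0.229 and 0.325). Of the 9 genes, 6 were called between the ends of KO mandible, 5 higher distally (1.46% of all genes) and 1 lower (3.58%; 5.03% in all). That fit left the array number out, although like-numbered arrays of these ends deviated together (correlations 0.67, 0.19, 0.28 and 0.32). Between the ends of control mandible 1 was called, higher distally (2.29%, with 2.55% lower and 4.84% in all).

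**Figure D4:**
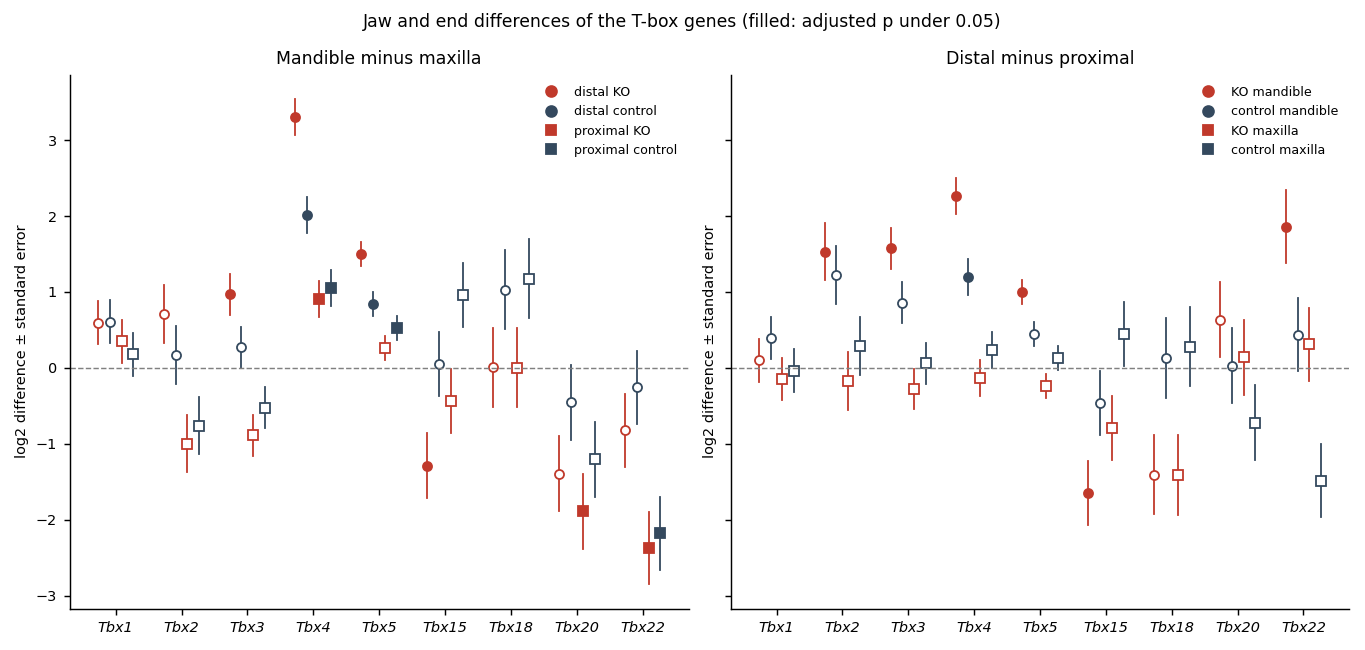
Differences of the 9 T-box genes between mandible and maxilla (left) and between distal and proximal ends (right), in log2 units with standard errors; circles and squares separate the ends or jaws, red is KO, dark blue is control, and filled symbols passed an adjusted p of 0.05. Tbx4 is above 0 in all 4 jaw comparisons, and Tbx22 is below 0 in them, filled at the proximal end in both genotypes.

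Tbx2 and Tbx3, the repressors, were also higher at the distal end of KO mandible. Tbx2 read 11.63, 11.86, 11.50 and 11.58 in KO distal mandible, against 10.26, 9.88, 10.18 and 10.12 in KO proximal mandible. In control tissue it read 11.02, 11.42, 11.80 and 11.54 distally against 10.36, 10.09, 10.14 and 10.29 proximally. The ends were separate in both genotypes, and the difference was 1.53 ± 0.38 in KO (adjusted p = 0.0141) and 1.22 ± 0.38 in control (adjusted p = 0.061). These differences are not shown to differ between the genotypes (0.31 ± 0.53, adjusted p = 0.999). The Tbx2 call in KO was lost in 3 of 4 fits that left out all arrays of 1 number (adjusted p up to 0.122). Tbx3 differed between the ends by 1.58 ± 0.27 in KO mandible (adjusted p = 0.00044) and by 0.86 ± 0.27 in control mandible (adjusted p = 0.066). Between the jaws Tbx3 was 0.97 ± 0.27 higher in KO distal mandible than in KO distal maxilla (adjusted p = 0.0154), a call lost without KO distal mandible array 1 (0.88, adjusted p = 0.0524). That call was also lost in 3 of 4 fits that left out all arrays of 1 number (adjusted p up to 0.0988). In maxilla both genes varied most within groups, with Tbx2 at 11.98, 9.67, 10.66 and 12.12 in KO proximal maxilla.

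In KO mandible 7 of the 9 genes had separate ends (18% of all genes), and in control mandible 4 (11.2%). In maxilla 0 genes were called between the ends of KO or of control tissue (0% of all genes in both), and no gene had separate ends (1.47% of all genes in KO and 1.49% in control). Tbx18 differed by -1.41 in KO (adjusted p = 0.871) and Tbx22 by -1.49 in control (adjusted p = 0.99997). Without the 4 doubted arrays Tbx18 was lower at the distal end of KO maxilla (-2.13, adjusted p = 7.33e-05) and Tbx22 at the distal end of control maxilla (-1.91, adjusted p = 0.0366). Those arrays were doubted because they resemble the other end, so a larger difference between ends without them follows in part from how they were chosen.

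Tbx22 was lower in mandible than in maxilla at the proximal end. Its highest means were in KO distal maxilla (11.04 ± 0.40), control proximal maxilla (10.92 ± 0.57) and KO proximal maxilla (10.73 ± 0.34), and its lowest in KO proximal mandible (8.36 ± 0.51); all neighbours in this order overlapped. At the proximal end the mandible minus maxilla difference was -2.37 ± 0.48 in KO (adjusted p = 0.00371) and -2.18 ± 0.48 in control tissue (adjusted p = 0.00496). Both calls were lost without all arrays of number 3 (adjusted p = 0.096 in KO and 0.13 in control). At the distal end the difference was -0.82 in KO (adjusted p = 0.278) and -0.25 in control (adjusted p = 0.962). Within KO mandible Tbx22 was 1.86 ± 0.48 higher at the distal end (adjusted p = 0.0195). Leaving out KO proximal array 2 or 3 or KO distal array 4 lost that call (adjusted p = 0.0558 to 0.0846). It was also lost in 3 of 4 fits that left out all arrays of 1 number (adjusted p up to 0.234). Within control mandible the difference between the ends was 0.44 (adjusted p = 0.774). Tbx20 read lower in proximal KO mandible than in proximal KO maxilla (-1.89, adjusted p = 0.029), but it passed the filter through KO maxilla arrays alone, and 5 of 8 fits that left out 1 array lost the call (adjusted p up to 0.106).

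For Tbx15 and Tbx18 the distal KO groups were the low ones. The lowest of the 8 means was in KO distal mandible for Tbx15 (8.93 ± 0.63), separate from the next group, KO distal maxilla (10.22 ± 0.46), and the other 6 means were 10.44 to 11.40. Tbx18 was lowest in KO distal maxilla (8.91 ± 0.97) and KO distal mandible (8.92 ± 0.46), with the other 6 means at 9.82 to 11.13. Tbx15 was lower in KO distal mandible than in KO distal maxilla (difference -1.29, adjusted p = 0.0408) and than in KO proximal mandible (difference -1.65, adjusted p = 0.0183). The first of these calls was lost in 5 of 8 fits that left out 1 array (adjusted p up to 0.152) and the second in 4 of 8 (adjusted p up to 0.0948). In control tissue the same differences were 0.06 (adjusted p = 0.997) and -0.46 (adjusted p = 0.7), and neither pair was shown to differ between genotypes (adjusted p = 0.647 for the jaws and 0.999 for the ends). Tbx18 differed by -1.41 between the ends of KO mandible (adjusted p = 0.14) and by 0.13 in control mandible (adjusted p = 0.966).

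Tbx1, which patterns the pharyngeal arches and their muscles, varied least, with group means between 8.49 and 9.25, all neighbours overlapping. It read 7.85, 8.66, 8.35 and 9.76 in KO distal maxilla, the widest group. It was not called in any of the 17 comparisons. Between distal jaws the difference was 0.60 in KO (adjusted p = 0.167) and 0.61 in control (adjusted p = 0.453), and without KO distal maxilla array 4 the KO difference was 0.96 (adjusted p = 0.00979).

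Separate groups between the jaws were seen for 5 of 9 genes at the distal KO end (20.7% of all genes), 4 at the distal control end (5.85%), 3 at the proximal KO end (8.08%) and 4 at the proximal control end (11.1%). The 3 at the proximal KO end include Tbx20, which passed the filter through KO maxilla arrays alone and is not counted as support. Jaw and end differences went along with other tissue. The skeletal muscle list had 9 of 9 genes called higher in KO distal mandible than in KO distal maxilla and 6 of 9 higher in control proximal mandible than in control proximal maxilla, with neuron markers lower (5 of 7 and 3 of 7 called). Between distal KO jaws 6 of 7 macrophage markers were called lower in mandible, with the list at 7.96 to 8.22 in mandible and 8.45 to 9.82 in maxilla. Between the ends of KO mandible 6 of 7 macrophage markers were called lower distally, with the list at 7.96 to 8.22 in the distal and 9.21 to 9.43 in the proximal group. Their part in the T-box differences was not tested.

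Pairs of the family moved together over the 32 arrays, which share groups and chips, so the correlations are descriptions. Pearson's r was 0.94 for Tbx4 and Tbx5 over 32 arrays, 0.99 over the 8 group means and 0.53 within groups. For Tbx2 and Tbx3 it was 0.85 over arrays and 0.86 within groups, and for Tbx15 and Tbx18 0.80 and 0.75. Tbx20, below the low-signal level on most arrays, is shown beside Tbx22 for completeness, and no likeness is read from it. In Tbx15 and Tbx18 the within-group value includes control proximal maxilla array 2, low in both. Tbx18 with Tbx22 gave -0.47 over arrays, -0.66 over group means and -0.13 within groups.

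**Figure D5:**
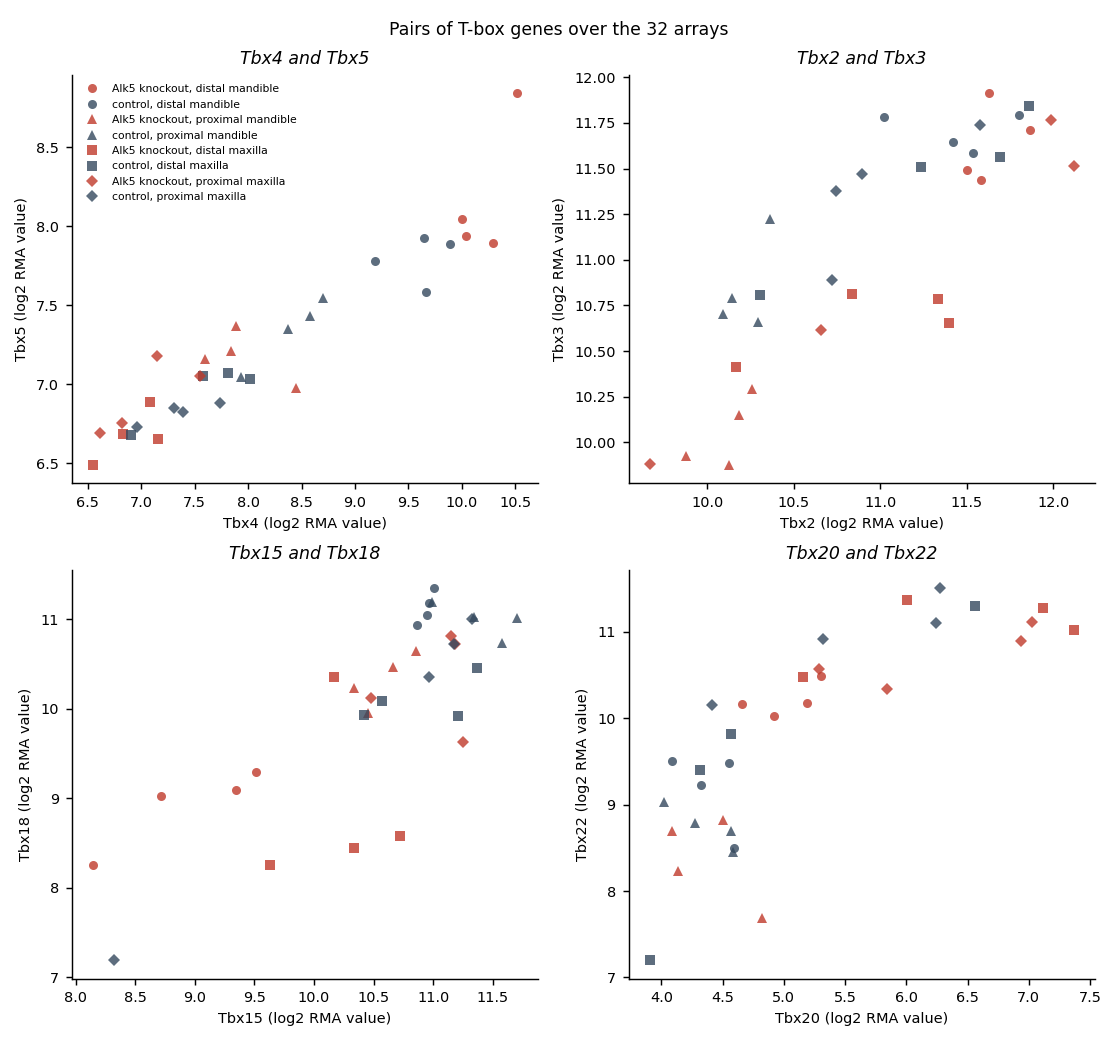
Log2 RMA values of 4 pairs of T-box genes over the 32 arrays, with marker shape for region and colour for genotype (red Alk5 knockout, dark blue control). Tbx4 and Tbx5 follow 1 line that ends in the KO distal mandible arrays, and the low end of both axes in the Tbx15 and Tbx18 panel holds KO distal mandible and control proximal maxilla array 2, while 3 KO distal maxilla arrays are low in Tbx18 (8.26 to 8.58).

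Among all tested genes, those most like each member over the 32 arrays were found by Pearson's r. Tbx4 was followed by Tbx5 (0.94) and the LIM-homeodomain gene Lhx9 (0.92), and Lhx9 came after Tbx4 in the list of Tbx5 (0.86). Tbx2 was followed by 2610027K06Rik (0.91) and Tfap2c (0.91), an AP-2 transcription factor, and Tbx3 by Rai14 (0.88) and Sema4f (0.86). The nearest to Tbx15 were S1pr3, a sphingosine-1-phosphate receptor (0.80), and Tbx18 (0.80), and those of Tbx18 were Dcn, the matrix proteoglycan decorin (0.82), and Lrrn1 (0.81). Tbx22 was nearest to E130114P18Rik (0.83) and Mapk12 (0.81), Tbx20, dim on most arrays, to Mapk12 (0.83) and Dusp4 (0.80), and Tbx1 to Klhdc10 (0.77) and Map3k1 (0.75). For Tbx5 and Lhx9 the value within groups was 0.15, so that likeness lay in the group means.

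Of the other T-box genes looked for, 6 had a probe set of their own and 3 passed the low-signal filter: Eomes, Tbx19 and Mga. Tbx6, Tbx21 and Tbr1 were above the low-signal level on 0 arrays, and Tbx10 and T had no probe set with a single symbol. Eomes, a factor of early mesoderm and of neural progenitors, was above that level on 7 arrays, all of KO maxilla (4 distal and 3 proximal), so it passed the filter only through the tissue where it is high, and its differences are a description. It read 7.14, 8.25, 7.69 and 7.32 in KO distal maxilla, against 6.33, 6.63, 6.28 and 6.45 in control distal maxilla (difference 1.17, adjusted p = 0.00593). It was lower in KO distal mandible than in KO distal maxilla (difference -1.29, adjusted p = 0.000109). Its arrays did not overlap between genotypes in distal maxilla. The neuron list had a median of 10.46 in KO and 9.17 in control distal maxilla. Its ranges overlapped, as given above, and no neuron marker was called between genotypes there. Tbx19 and Mga were called in 0 of 17 comparisons.

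Signals and factors that act upstream of T-box genes were followed as a list of 13 genes, all tested. In distal mandible 1 was called lower in KO and 0 higher, with a list median of 0.07 against -0.03 over all genes; it was Bmp2, a BMP ligand (-1.19, adjusted p = 0.000987). Bmp2 was also lower in KO proximal mandible (-0.87, adjusted p = 0.016), in KO distal maxilla (-0.93, adjusted p = 0.018) and on average (-0.72, adjusted p = 0.0265). Shh, the hedgehog ligand of oral epithelium, was higher in KO proximal mandible (1.49, adjusted p = 0.0347). Between the ends of the mandible Bmp4 was higher distally by 2.04 in KO (adjusted p = 0.000161) and by 1.42 in control (adjusted p = 0.0081), as Tbx4 was. Foxc1, a forkhead factor of mesenchyme, was lower in mandible than in maxilla at the distal end, with a difference of -3.15 in KO (adjusted p = 8.69e-06) and -1.82 in control (adjusted p = 0.0202). Hand2, the lower jaw selector, was higher in mandible in all 4 jaw comparisons (3.47 to 5.72).

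Of 13 partners and co-repressors 9 were tested. In distal mandible 1 was called lower in KO and 0 higher: Tle1, a Groucho co-repressor (-0.55, adjusted p = 0.0492). Pax3, a neural crest and muscle precursor factor, was higher at the distal end of the mandible by 3.71 in KO (adjusted p = 3.13e-05) and by 3.64 in control (adjusted p = 0.000115), and lower in mandible than in maxilla at the proximal end (-2.999 in KO and -2.49 in control, adjusted p = 0.000706 and 0.00296). Eya1 was higher distally in KO mandible (1.32, adjusted p = 0.000503). Of 14 genes known as T-box targets in other settings 10 were tested, and 0 were called between genotypes in any of the 4 regions. Between the jaws Lhx2, a LIM-homeodomain gene, was lower in mandible in all 4 comparisons (-6.32 at the distal and -3.03 at the proximal end in KO, -4.39 and -3.44 in control), and Tcf21, a factor of facial muscle precursors, was higher in 3 of 4 (1.62 to 2.36). Between the ends of control mandible Cdh1 (0.90, adjusted p = 0.01) and Smad7 (0.57, adjusted p = 0.0421) were higher and Msc (-2.26, adjusted p = 0.0326) was lower distally.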

How the data were processed

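Total RNA was hybridised to Affymetrix Mouse430 2.0 arrays, per the labels. The authors deposited log2 RMA values, 1 per probe set and array, and RMA is named in the submitters' processing notes without a version. RMA draws arrays to 1 distribution and compresses differences of dim probes. Of 45101 probe sets, 34945 carried 1 gene symbol. A probe set was kept when 4 or more arrays placed it above percentile 40 of their own values (29356), and the brightest stood for its gene (13705 genes). limma 3.58.1 in R 4.3.3 fitted the 8 group means (24 residual degrees of freedom), and the average genotype effect was fitted on 4 against 4 averaged values. P-values were two-sided, moderated by eBayes and adjusted by Benjamini-Hochberg over all genes of a comparison, with a threshold of 0.05. Like-numbered arrays deviated together for the average effect (0.44, 0.20, 0.40 and 0.23), for proximal KO jaws and for KO mandible ends, on the evidence of the values, with number 1 apart in its spike-in. The main fits of these comparisons did not use the number, and fits with it as a block are given below. The members, gene lists and tests were chosen with earlier results of these data known. The named genes were the 9 members, Tgfbr1, up to 4 called genes a list and comparison, and the 2 genes most like each member. Gene groups were summarised by mean log2 level per array. Simulated data tested the fit. The number of arrays limits the precision.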

Additional observations from a re-analysis of the deposited data

Results flagged for a closer look

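In 6 of 72 groups of 4 arrays the highest or lowest array stood apart from the other 3 by Dixon's test, where chance alone gives about 1 in 20 groups. Control proximal maxilla array 2 was low for Tbx15, at 8.32 with the other arrays at 10.96 to 11.32, and for Tbx18, at 7.20 with the others at 10.35 to 11.002. KO distal maxilla array 4 was high for Tbx18, at 10.36 with the others at 8.26 to 8.58. Tbx5 was low on control distal maxilla array 2, at 6.68 with the others at 7.03 to 7.07. These 4 values lie on arrays that resemble the other end of the maxilla more than their own. KO proximal maxilla array 2 was low for Tbx15, at 10.48 with the others at 11.14 to 11.25. Tbx5 was high on KO distal mandible array 1, at 8.84 with the others at 7.89 to 8.05.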

How the results depend on the processing

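Counts below are of the 9 T-box genes called with limma. Apart from the replicate block, the share of all genes called was not worked out for these fits. The counts therefore show only how the member calls moved. Tbx20 passed the filter through KO maxilla arrays alone and is not counted as support where it is among them. Leaving out 1 array, or all arrays of 1 number, gave 0 to 2 for KO minus control in distal mandible, 0 to 3 in distal maxilla and 0 to 3 on average. It gave 1 to 2 between distal control jaws, 0 to 3 between proximal control jaws, 2 to 5 between distal KO jaws and 0 to 3 between proximal KO jaws, 0 to 2 between control and 3 to 6 between KO mandible ends, and 0 to 1 for the genotype difference between distal jaws. With the replicate number as a block the count was 2 between control mandible ends (Tbx3 and Tbx4) and 1 on average (Tbx3), and no other count of called members moved by over 1.5 times; over all genes the block called 729 in distal mandible, against 262 without it. Fitting only the groups compared gave 1 in proximal mandible (Tbx3), 1 between proximal KO jaws (Tbx22), 3 between control mandible ends and 1 for the genotype difference between mandible ends (Tbx18). Between control mandible ends the mean of probe sets gave 2, number 1 as a covariate 2 and the random block 4. That covariate gave 2 on average (Tbx3 and Tbx18). The stricter low-signal filter gave 1 between distal control jaws (Tbx4). Chosen after seeing the data, leaving out the array of high Gapdh difference gave 1 in distal mandible (Tbx15). Leaving out the Xist-high arrays gave 3 in distal maxilla and 2 on average. Leaving out the 4 doubted maxilla arrays gave 3 in distal maxilla (Tbx18, Tbx20, Tbx22), 1 between control maxilla ends, 1 between KO maxilla ends and 1 for the genotype difference between maxilla ends (Tbx18). Leaving out number 1 too was not planned and left 2 arrays in each maxilla group. It gave 2 in proximal mandible, 4 in distal maxilla, 4 between control mandible ends, 1 between control maxilla ends and 2 between KO maxilla ends. The uncalled Tbx2 difference between KO maxilla ends, -0.17, changed sign to 0.42 without the doubted arrays and 0.92 without number 1 too, and ran from -0.65 to 0.42 when arrays or numbers were left out. Without the low-signal filter another dim probe set stands for Tbx20, with differences of -0.0759 for KO minus control in distal maxilla and 0.0314 between distal KO jaws. Apart from the probe set change for Tbx20, the cause of these moves was not tested.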
